A study of Mus musculus with 18 samples.

Results

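A set of 10 core genes of the circadian clock and its direct output was examined in the lateral septum (LS) of female mice: Nr1d1, Nr1d2, Dbp, Tef, Per1, Per2, Per3, Cry1, Cry2 and Clock. The 10 genes were taken by symbol from probesets annotated to a single gene, with the brightest probeset kept for a gene, and each of the 10 had exactly 1 such probeset among the 19938 genes of the array. All outbred hsd:ICR females were about 70 days old and were dissected between 10 and 12 h of a cycle of 12 h light and 12 h dark with lights on at 6 h. Per the methods of the study, dissections alternated among the groups. Total RNA of each mouse was hybridised to an Affymetrix Mouse Gene 1.0 ST array of its own, and the groups were 6 virgin, 6 maternal and 6 pups removed females. Maternal and pups removed females had been housed with a breeder male and gave birth, with litters set to 11 pups at birth, and virgin females had shared a cage with other females for the same time. Maternal females kept their litters until dissection on postpartum day 7, whereas the litters of pups removed females were taken away on postpartum day 2. Virgin and pups removed females were in diestrus when dissected, and all females lived alone after the first weeks. The tissue was punched from frozen sections, so each value is an average over the cells of the punch, in which fewer cells of a type and less RNA per cell cannot be told apart.

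The mammalian clock is a transcriptional feedback loop that runs in nearly every cell of the body, brain included. CLOCK and its partner BMAL1 (Arntl) bind E-boxes and activate the Per and Cry genes, whose proteins return to the nucleus and repress that activation. A second loop passes through the nuclear receptors REV-ERBα (Nr1d1) and REV-ERBβ (Nr1d2), which repress Arntl and Clock from ROR elements, and the PAR bZIP factors DBP and TEF carry the rhythm to target genes through D-boxes. In rodents kept in a light and dark cycle, Nr1d1 and Dbp transcripts are known for wide daily swings and Clock for a narrow one, and Per1 and Per2 also respond to glucocorticoids and to neuronal activity.

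The elements through which the loop acts are short DNA words, and a stretch of 5 promoters that holds such a word is shown because the genes described here encode, or are known targets of, the factors that read them. RefSeq windows (GRCm38.p6) were matched by symbol for 9 of the 10 genes, all but Per2, giving 13 windows with 250 bases before a transcript start. Each stretch is given on the strand of its gene, with the matched letters in capitals and up to 12 bases on either side. The matches mark an E-box (CACGTG), an E-box-like word (CACGTT, which reads AACGTG on the other strand) or a D-box (TTATGTAA), searched on both strands, and no letter is shared between matches. The Nr1d1 stretch lies at chr11:98775388-98775417 on the minus strand, that of Tef at chr15:81802534-81802563 and that of Per1 at chr11:69098771-69098800 on the plus strand, that of Per3 at chr4:151044804-151044882 and that of Cry1 at chr10:85185097-85185145, both on the minus strand.
Nr1d1: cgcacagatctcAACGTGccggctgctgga
Tef: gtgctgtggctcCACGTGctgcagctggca
Per1: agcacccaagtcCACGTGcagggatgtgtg
Per3: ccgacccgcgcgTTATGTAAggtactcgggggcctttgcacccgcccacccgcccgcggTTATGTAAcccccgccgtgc
Cry1: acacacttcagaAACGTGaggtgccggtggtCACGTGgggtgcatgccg

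The E-box was present in 4 of the 13 windows, 2 of them of Tef and the others of Per1 and Cry1, against 6.02% of all 32851 windows in the table. The Per1 window with the E-box and the second of the Tef windows, which is not printed, precede starts that lie inside the annotated gene. The E-box-like word was present in 3 windows, those of Nr1d1, Cry1 and Cry2, against 3.85% of all windows. The D-box, searched as TTATGTAA or TTACGTAA, was present in 1 window, that of Per3, where it occurs 2 times, against 0.931% of all windows. None of the 13 windows held the ROR element searched as TAGGTCA or TGGGTCA, which 5.38% of all windows hold, or the cAMP response element TGACGTCA, which 1.55% hold. These are matches of letters in short windows, with no test.

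The 18 arrays were alike in overall signal, with medians between 7.61 and 7.70 on the log2 scale and Pearson r between 0.988 and 0.995 for pairs of arrays across probesets, which are not independent replicates. The mean signals of the clock genes lay between the 61.2 and 96.5 percentile of all 35557 probesets, with Cry1 at the lower end and Nr1d1 at the upper end. In the limma fit over all probesets, 585 (1.65%) differed between maternal and virgin arrays with an adjusted p below 0.25, the cutoff used by the study. The study reported a larger number of targets at this cutoff, and why the counts differ was not tested. Markers of medium spiny neurons of the neighbouring striatum also differed between the groups. All 16 measured markers of 18 were lower in maternal than in virgin arrays, 5 of them past the threshold, and their mean over the list ranged from 9.49 to 10.07 in maternal, from 10.19 to 10.42 in virgin and from 9.69 to 10.54 in pups removed arrays. Markers of tissues that line the ventricle were also lower in maternal than in virgin arrays, all 7 of choroid plexus (median log2 difference -0.31) and all 4 of ependyma (-0.30), with 0 called by limma and 1 of each at an unadjusted p under 0.05. Of all probesets 10.4% had such a p. The 12 lateral septal markers, Sst, Gad1 and Gad2 among them, had list means of 10.8 in each of the 3 groups, and none passed the threshold in any comparison, with 3 at an unadjusted p under 0.05 between maternal and virgin arrays.

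In lactating mothers, 2 of the 10 clock genes were lower than in virgin females past the test, where Nr1d1 fell by 13.0% and Dbp fell by 16.6%. None of the 10 was higher past the test, though 3 had a positive difference. Tef, the close relative of Dbp, was lower by a smaller step that missed the threshold, and the remaining 7 genes lay within 0.06 of no difference on the log2 scale. Across all probesets, 1.65% passed the same threshold, and 10.4% had an unadjusted p under 0.05, which 3 of the 10 clock genes had, all 3 lower in mothers. The median log2 difference of the 10 genes was -0.03, beside 0.01 over all probesets. After loss of the litter, Nr1d1, Dbp and Tef had levels whose differences from virgin females were small and did not pass the test, as described below.

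**Figure D1:**
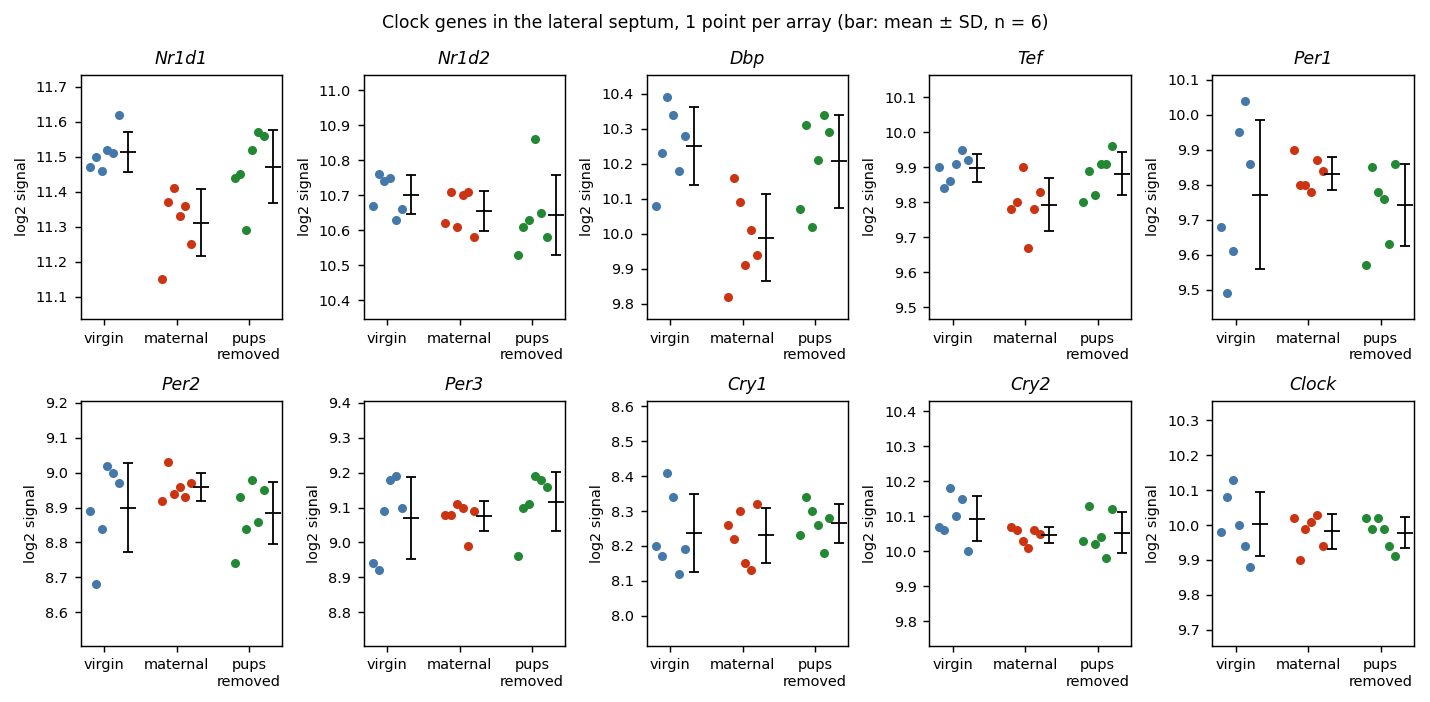
Log2 signal of the 10 clock genes, 1 point per array, in virgin, maternal and pups removed females (n = 6 each), with the mean ± SD at the right of each group and the same span of 0.70 on every vertical axis. Maternal points for Nr1d1 lie below all virgin points, whereas virgin points for Per1 are spread from 9.49 to 10.04.

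Nr1d1, whose protein is a heme-binding repressor of Arntl, had the log2 values 11.46, 11.51 and 11.62 (lowest, median and highest) in virgin arrays, 11.15, 11.35 and 11.41 in maternal arrays, and 11.29, 11.49 and 11.57 in pups removed arrays. All 6 maternal arrays lay below all 6 virgin arrays, as for 0.835% of all probesets in either direction, while pups removed arrays overlapped with both groups. The log2 difference between maternal and virgin arrays was -0.20 ± 0.05 (SE), with a 95% interval from -0.31 to -0.09 and a limma adjusted p of 0.185. No other clock gene had groups that did not overlap in any comparison.

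Nr1d2, the paralog of Nr1d1 with much the same target elements, gave other values. Its log2 signal was 10.63, 10.71 and 10.76 (lowest, median and highest) in virgin, 10.58, 10.66 and 10.71 in maternal, and 10.53, 10.62 and 10.86 in pups removed arrays. The groups overlapped, and 3 of the 6 maternal arrays lay below every virgin array. The difference between maternal and virgin arrays was -0.05, with a 95% interval from -0.15 to 0.05 (limma adjusted p = 0.782). Whether the difference of Nr1d1 exceeds that of Nr1d2 was not tested.

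Dbp, the albumin D-box binding protein and a direct output of the E-box, ranged from 10.08 to 10.39 in virgin arrays with a median of 10.26. In maternal arrays it ranged from 9.82 to 10.16 with a median of 9.98, and in pups removed arrays from 10.02 to 10.34 with a median of 10.25. The maternal arrays were the low ones, 4 of 6 below every virgin array and 6 of 6 below the virgin mean, with an overlap at 10.08 to 10.16. The log2 difference was -0.26 ± 0.07 (SE), with a 95% interval from -0.41 to -0.12 and a limma adjusted p of 0.190. Tef, which binds the same D-box as Dbp, ranged from 9.84 to 9.95 in virgin arrays (median 9.91), from 9.67 to 9.90 in maternal arrays (median 9.79) and from 9.80 to 9.96 in pups removed arrays (median 9.90). For Tef 5 of 6 maternal arrays lay below every virgin array, and the remaining one stood inside the virgin range. Its log2 difference of -0.10 ± 0.04 (SE) had an unadjusted p of 0.0156 and an adjusted p of 0.351 in limma.

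The calls of Nr1d1 and Dbp rested on single libraries as far as the threshold goes, though their values did not. Leaving out virgin replicate 2 or maternal replicate 4, 5 or 6 raised the limma adjusted p of Nr1d1 to 0.340, 0.290, 0.311 or 0.314. That of Dbp rose to 0.347, 0.344, 0.334 or 0.314 in the same order. In all 18 fits with an array left out, log2 differences stayed between -0.22 and -0.17 for Nr1d1 and between -0.30 and -0.23 for Dbp. Leaving out a pups removed array cannot change these differences. Dbp also missed the threshold without virgin replicate 3 (0.334) or 4 (0.297). Over all probesets limma called 585 with all arrays, 76 without virgin replicate 2, and 143, 10 and 163 without maternal replicates 4, 5 and 6. Without virgin replicates 3 and 4 it called 227 and 334. With the mean of the striatal markers in each array as a covariate, the difference was -0.19 for Nr1d1 (adjusted p = 0.859) and -0.17 for Dbp (adjusted p = 0.884). In that limma fit 0 of 35557 probesets were called, with 2017 below an unadjusted p of 0.05. The part of the striatal, choroid plexus and ependymal signal in these differences was not tested. Over all alternatives the adjusted p ranged from 0.133 to 0.859 for Nr1d1 and from 0.138 to 0.884 for Dbp.

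**Figure D2:**
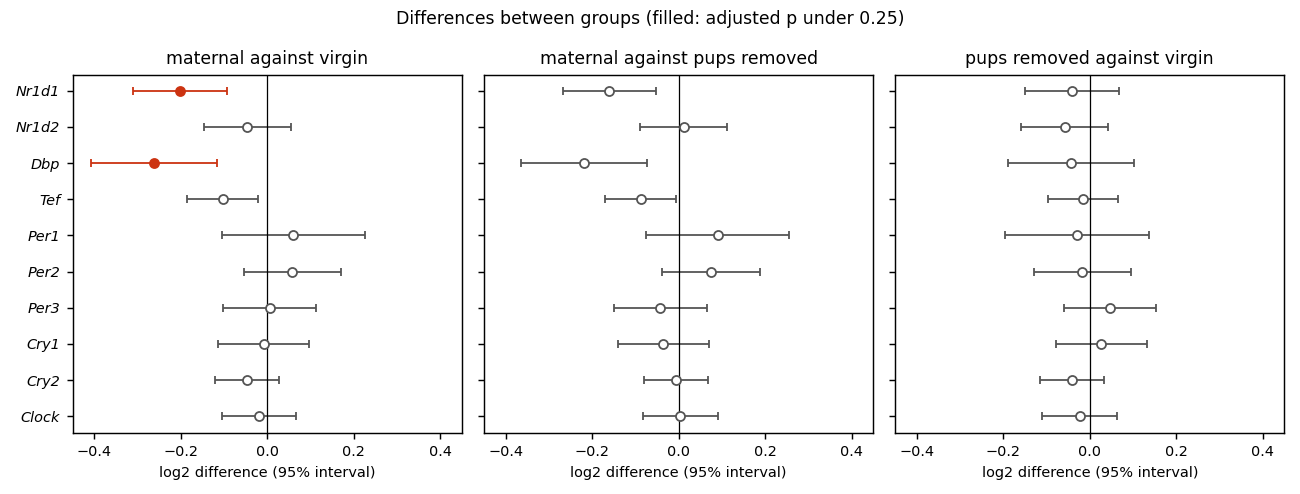
Log2 differences of the 10 clock genes between groups in the limma fit (points) with 95% intervals (bars), where filled red points have an adjusted p under 0.25. Nr1d1 at -0.20 and Dbp at -0.26 in maternal against virgin arrays are the filled ones, and the intervals of pups removed against virgin arrays all include 0.

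The period genes encode the repressors that accumulate through the day and are also induced acutely by light and hormones. Per1 had 9.49, 9.77 and 10.04 (lowest, median and highest) in virgin, 9.78, 9.82 and 9.90 in maternal, and 9.57, 9.77 and 9.86 in pups removed arrays. Virgin arrays fell on both sides of all maternal arrays, with replicates 1, 2 and 3 below every maternal array and replicates 4 and 5 above. The log2 difference between maternal and virgin arrays was 0.06, with a 95% interval from -0.11 to 0.23 (limma adjusted p = 0.840). Per2 showed the same narrow maternal band, from 8.92 to 9.03 beside 8.68 to 9.02 in virgin and 8.74 to 8.98 in pups removed arrays. Its difference of 0.06 had a 95% interval from -0.06 to 0.17 (limma adjusted p = 0.750). Per3 ranged from 8.99 to 9.11 in maternal, from 8.92 to 9.19 in virgin and from 8.96 to 9.19 in pups removed arrays, and its difference was 0.01 with a 95% interval from -0.10 to 0.11. Between virgin arrays the SD of Per1, Per2 and Per3 was 0.21, 0.13 and 0.12, between maternal arrays it was 0.05, 0.04 and 0.04, and between pups removed arrays 0.12, 0.09 and 0.09. A difference in spread between groups was not tested.

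The cryptochromes are the strongest repressors of CLOCK and BMAL1 and act together with the period proteins. Cry1 ranged from 8.12 to 8.41 in virgin, from 8.13 to 8.32 in maternal and from 8.18 to 8.34 in pups removed arrays. Cry2 had means of 10.09 ± 0.07, 10.05 ± 0.02 and 10.05 ± 0.06 in the same order (SD, n = 6). The log2 differences between maternal and virgin arrays were -0.01 for Cry1 (95% interval from -0.11 to 0.10) and -0.05 for Cry2 (from -0.12 to 0.03). Clock, the activator, ranged from 9.88 to 10.13 in virgin, from 9.90 to 10.03 in maternal and from 9.91 to 10.02 in pups removed arrays, with a difference of -0.02 (95% interval from -0.11 to 0.07). For these 3 genes the groups overlapped almost fully and no difference passed the test, with limma adjusted p between 0.674 and 0.971.

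Mothers that kept their pups were then set against mothers that had lost them, which shares the maternal arrays with the comparison above. Dbp was lower in maternal than in pups removed arrays, with a log2 difference of -0.22 ± 0.07 (SE), an unadjusted p of 0.00557 and a limma adjusted p of 0.395. For Nr1d1 the difference was -0.16 ± 0.05, with an unadjusted p of 0.00623 and an adjusted p of 0.396. For Tef it was -0.09 ± 0.04, with an unadjusted p of 0.0348 and an adjusted p of 0.532. Every maternal array was below the pups removed mean for Nr1d1 and Dbp, and 5 of 6 were for Tef. None of the 10 genes was called by limma, where 0.0309% of all probesets were. An unadjusted p below 0.05 was found for these 3 of the 10 and for 8.96% of all probesets. With array weights in limma, Dbp (adjusted p = 0.232) and Nr1d1 (adjusted p = 0.249) passed the threshold. Over all alternatives the adjusted p ranged from 0.232 to 0.964 for Dbp and from 0.249 to 0.909 for Nr1d1. In the same comparison all 16 striatal markers were lower in maternal arrays, 11 with an unadjusted p under 0.05 and a median of -0.30, as were all 7 choroid plexus and all 4 ependymal markers, and their part in these differences was not tested. The other 7 genes had log2 differences between -0.04 and 0.09, Per1 with 0.09 and Per2 with 0.08 being the highest, and the median over the 10 was -0.02, beside -0.003 over all probesets. Groups that did not overlap were found for 0.529% of all probesets and for 0 of the 10.

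Females without pups differed little from virgin females in these genes. The log2 differences between pups removed and virgin arrays were -0.04 for Nr1d1 (95% interval from -0.15 to 0.07), -0.04 for Dbp (from -0.19 to 0.10) and -0.02 for Tef (from -0.10 to 0.07). Over the 10 genes they ran from -0.06 for Nr1d2 to 0.05 for Per3, with a median of -0.03. Limma called 0 of the 10 and gave none an unadjusted p below 0.05, beside 0.208% and 8.13% of all probesets, and groups that did not overlap were found for 0.38% of probesets and none of the 10. The interval of Dbp still reaches down to a change of -12.3%. When both postpartum groups were pooled against virgin arrays, Dbp had a difference of -0.15 (adjusted p = 0.410) and Nr1d1 of -0.12 (adjusted p = 0.371). In that limma contrast 0 of the 10 were called, beside 0.83% of all probesets, and these 2 had an unadjusted p under 0.05, beside 9.53% of all probesets.

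A further 30 genes of the clock pathway were examined in the same fit. None of the 30 was called by limma in any of the 4 comparisons, while 5 had an unadjusted p under 0.05 between maternal and virgin arrays, 1 of them higher and 4 lower in mothers, beside 1.65% called and 10.4% with such a p over all probesets. The lower ones were the E-box repressors Ciart, with a log2 difference of -0.29 (adjusted p = 0.394), and Bhlhe41, with -0.18 (adjusted p = 0.447), the deubiquitinase Usp2, with -0.18 (adjusted p = 0.348), and the kinase Dyrk1a, with -0.08 (adjusted p = 0.416). The higher one was Arntl2, the second BMAL, with 0.19 (limma adjusted p = 0.303). Arntl2 was also higher in pups removed than in virgin arrays, with a log2 difference of 0.16 (95% interval from 0.03 to 0.29). Between maternal and pups removed arrays Arntl2 differed by 0.02 (95% interval from -0.11 to 0.16). Ciart is named alone by 2 probesets, and the dimmer one gave a difference of -0.19. The median over the 30 genes was -0.02.

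Several partners of the 10 genes had small differences between maternal and virgin arrays, unlike Arntl2, Ciart and Bhlhe41 above. Arntl, the target of the REV-ERB repressors, ranged from 8.60 to 8.71 in virgin and from 8.52 to 8.77 in maternal arrays, with a log2 difference of 0.01 (95% interval from -0.08 to 0.10). Hlf, the remaining PAR bZIP factor beside Dbp and Tef, ranged from 9.95 to 10.06 and from 9.95 to 10.09 in the same groups, with a difference of -0.002 (from -0.09 to 0.08). Nfil3, a repressor that competes for the D-box, differed by -0.01, Rora and Rorb, activators that share elements with the REV-ERBs, by -0.03 and -0.05, and Bhlhe40 by -0.04. In maternal against pups removed arrays, Rorb was the 1 gene of the 30 with an unadjusted p under 0.05, at -0.11, beside 8.96% of all probesets. In the order of all 40 differences, Ciart, Dbp and Nr1d1 stood at the low end and Arntl2, Per1 and Per2 at the high end.

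**Figure D3:**
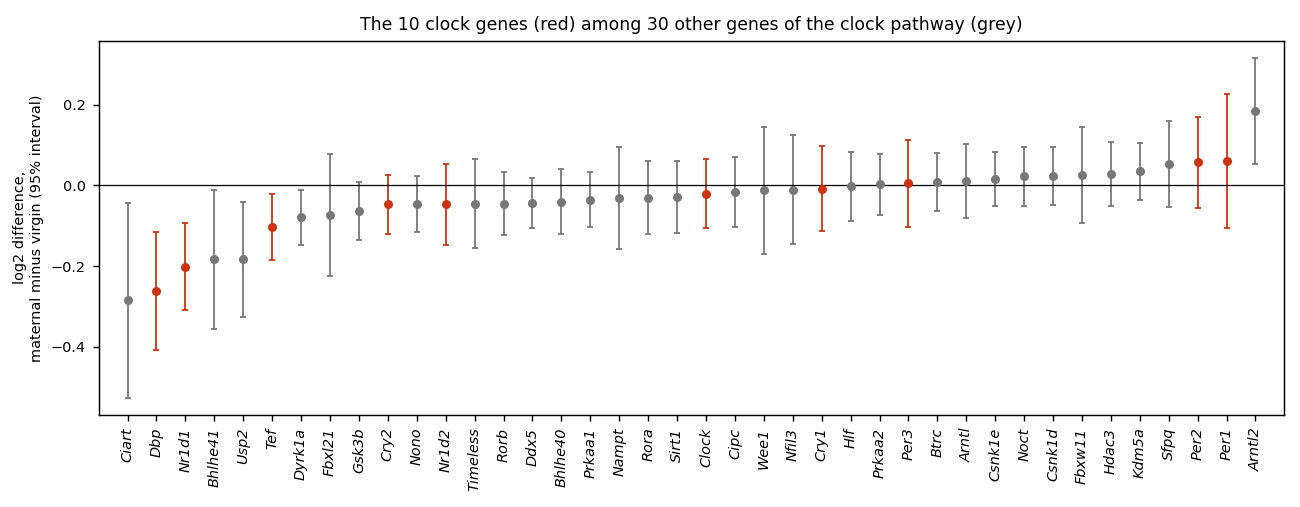
Log2 difference between maternal and virgin arrays with its 95% interval for the 10 clock genes (red) and 30 other genes of the pathway (grey), in order of the difference. Ciart at -0.29, Dbp at -0.26 and Nr1d1 at -0.20 are lowest, and Arntl2 at 0.19 is highest.

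The 10 genes were next followed from array to array, after the mean of each group had been subtracted so that group differences do not enter. The time of dissection of each mouse within the window from 10 to 12 h is not given in the sources used here, and its part in these deviations was not tested. Over 18 arrays the 45 pairs of clock genes had a median Pearson r of 0.21, with 33 positive and 12 negative pairs, beside a median of 0.02 over all 198751953 pairs of genes. No pair passed the Benjamini-Hochberg adjustment over the 45 at 0.05 in a permutation test within groups, and 10 pairs had an unadjusted p under 0.05. Of all gene pairs, 9.44% had an r of at least 0.5 in either direction, and their share with such a p was not computed. The values below are therefore descriptions, and all points share the arrays and their RNA.

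**Figure D4:**
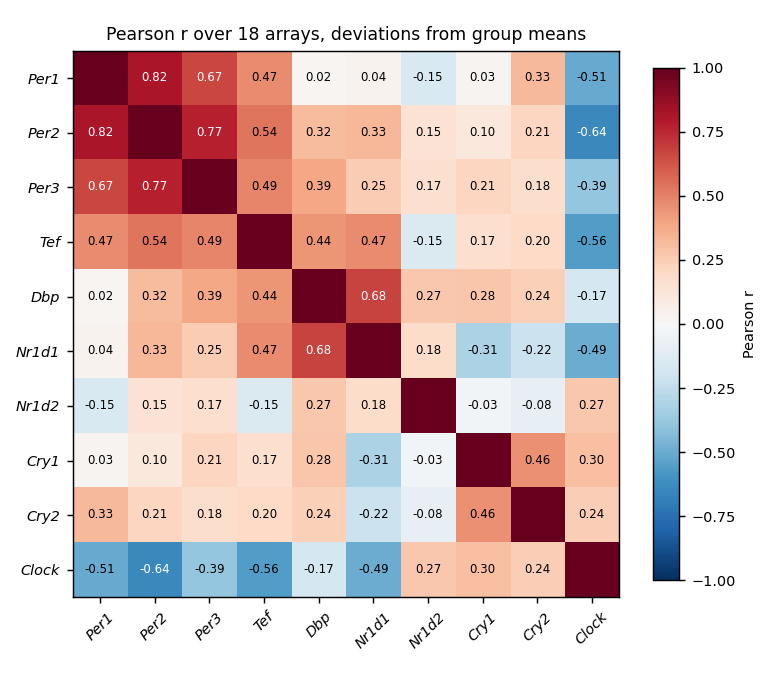
Pearson r between pairs of the 10 clock genes over 18 arrays, after subtraction of group means, with red for positive and blue for negative values. The 3 period genes form a block of 0.67 to 0.82, Nr1d1 and Dbp a pair at 0.68, and the row of Clock is negative against Per1, Per2, Per3, Tef, Dbp and Nr1d1.

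The period genes gave 3 of the 4 highest r values among the 45 pairs. Per1 and Per2 had an r of 0.82 (permutation p = 0.00151, adjusted p = 0.0619) and a Spearman rho of 0.68 (permutation p = 0.0152), and r was 0.72 without the 2 arrays farthest from the median of Per1. Per2 and Per3 had an r of 0.77 (permutation p = 0.00275, adjusted p = 0.0619) and a rho of 0.68 (permutation p = 0.0107), and r was 0.52 without 2 arrays. Per1 and Per3 had an r of 0.67 (permutation p = 0.0268, adjusted p = 0.121) and a rho of 0.49 (permutation p = 0.0927), and r was 0.46 without 2 arrays. An r of 0.8 or more was reached by 0.0798% of all gene pairs. Of 19937 other genes, Per2 ranked 3 in likeness to Per1, and Per2 ranked 5 and Per1 52 in likeness to Per3.

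Within groups, r of the period genes was positive in virgin and pups removed arrays, where these genes spanned a wider range, and was lower or negative in maternal arrays. Between Per1 and Per2, r was 0.94 in virgin (exact permutation p = 0.00417), 0.77 in pups removed (exact permutation p = 0.0750) and -0.58 in maternal arrays (exact permutation p = 0.231), each over 6 arrays. Between Per2 and Per3 it was 0.82, 0.81 and 0.25 in the same order, and between Per1 and Per3 it was 0.86, 0.48 and -0.53. The virgin arrays stood in separate sets for Per1, with replicates 1, 2 and 3 between 9.49 and 9.68 and replicates 4, 5 and 6 between 9.86 and 10.04, and a graded relation over these 6 arrays cannot be told apart from a step between the sets. In the maternal arrays Per1 spanned only 9.78 to 9.90. Whether r differs between groups was not tested.

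Nr1d1 and Dbp, the genes that fell in mothers, gave the remaining one of these 4 values, and group means had no part in it. Their r was 0.68 (permutation p = 0.00474, adjusted p = 0.0711), with a rho of 0.57 (permutation p = 0.0239), and was 0.45 without the 2 arrays farthest from the median of Nr1d1. By group it was 0.84 in maternal (exact permutation p = 0.0333), 0.82 in pups removed (exact permutation p = 0.0306) and 0.13 in virgin arrays (exact permutation p = 0.794). Maternal replicate 1 was lowest of its group in both genes, at 11.15 for Nr1d1 and 9.82 for Dbp, and pups removed replicate 3 was lowest of its own at 11.29 and 10.02. Tef had positive values with both sets, with r of 0.47 to Nr1d1, 0.44 to Dbp and between 0.47 and 0.54 to the period genes. Nr1d1 and Dbp themselves had r between 0.02 and 0.39 with the period genes.

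**Figure D5:**
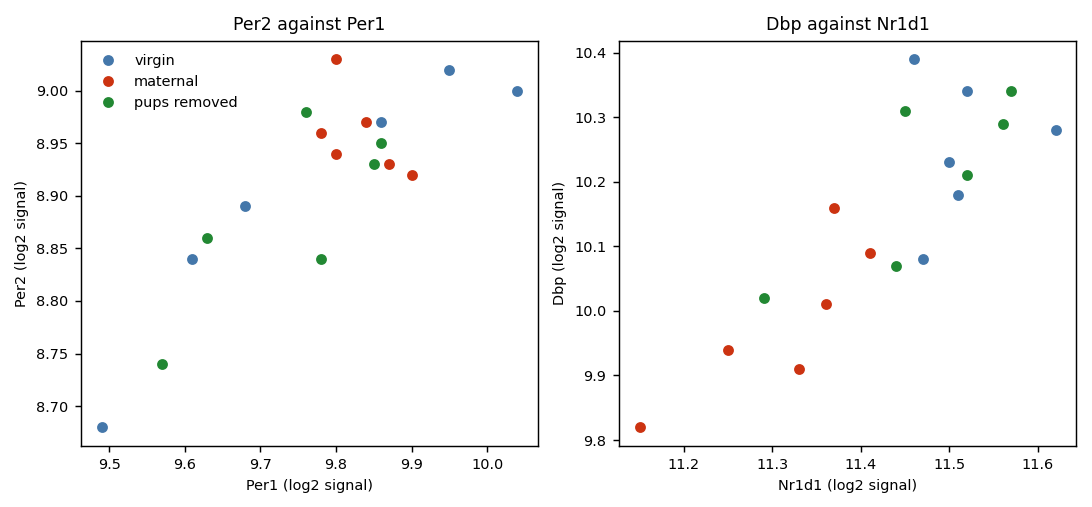
Log2 signal of Per2 against Per1 (left) and of Dbp against Nr1d1 (right), 1 point per array, coloured by group (n = 6 each), with group means left in. Maternal points are bunched between 9.78 and 9.90 on the Per1 axis and lie at the lower left for Nr1d1 and Dbp.

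The values of Clock were of opposite sign. All 6 of its r values with Nr1d1, Dbp, Tef and the period genes were negative, from -0.64 with Per2 to -0.17 with Dbp. With Per2 the permutation p was 0.0179 (adjusted p = 0.0967), rho was -0.75 (permutation p = 0.00174) and r without 2 arrays was -0.62. With Tef r was -0.56 (permutation p = 0.00822, adjusted p = 0.0740), rho was -0.70 (permutation p = 0.00170) and r without 2 arrays was -0.72. Arntl, the partner of CLOCK, likewise had negative r with Per2, at -0.60 (permutation p = 0.00043, adjusted p = 0.0645 over 300 pairs) with a rho of -0.64 (permutation p = 0.00302). Cry1 and Cry2 had an r of 0.46 with each other (permutation p = 0.0937, adjusted p = 0.325) and between -0.31 and 0.33 with Nr1d1, Dbp, Tef and the period genes, and Nr1d2 had r between -0.15 and 0.27 with the other 9 genes.

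Among the 300 pairs of a clock gene with 1 of the 30 other pathway genes, 0 passed the adjustment at 0.05 and 41 had an unadjusted permutation p under 0.05. The share of all gene pairs with such a p was not computed, and 9.44% of them had an r of at least 0.5 in either direction. Whether the 41 exceed the number among other genes was not tested. The pair with the smallest p was Clock and Prkaa1, a subunit of the energy-sensing kinase AMPK, with r of 0.83 (permutation p = 0.00033, adjusted p = 0.0645), a rho of 0.85 (permutation p = 0.00022) and r of 0.73 without 2 arrays. Hlf, which did not differ between maternal and virgin arrays beyond its interval, had positive r with the other PAR bZIP factors and with Nr1d1. Its r was 0.64 with Dbp (permutation p = 0.0112, adjusted p = 0.244), 0.63 with Nr1d1 (permutation p = 0.0138, adjusted p = 0.244), 0.57 with Tef and 0.59 with Per2, and -0.54 with Clock. Hlf ranked 67 of 19937 genes in likeness to Dbp, and Nr1d1 ranked 29. Nr1d2, which had r of 0.18 with Nr1d1, was nearer to the kinase gene Csnk1e (r = 0.70, adjusted p = 0.297, and 0.27 without 2 arrays), Bhlhe41 (r = 0.68, adjusted p = 0.190) and Ciart (r = 0.66, adjusted p = 0.190). Nfil3, which acts against DBP at the D-box, had r of -0.55 with Dbp (permutation p = 0.0240, adjusted p = 0.288) and -0.50 with Nr1d1 (permutation p = 0.0371, adjusted p = 0.338). These were -0.43 and -0.37 without 2 arrays. The mean signal of Nfil3 was 7.47, at the 46.4 percentile of all probesets.

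The genes nearest to each clock gene over the 18 arrays were mostly outside the pathway. For Nr1d1 they were Cln6 (r = 0.90), Olfr1469 (0.84) and Scamp4 (0.79), and for Nr1d2 Alg2 (0.89), Nalcn (0.84) and Dnajc5 (0.84). For Dbp they were Zdhhc4 (r = 0.80), Fam122a (0.80) and Syt10 (0.77), and for Tef Faap20 (0.85), Elapor1 (0.84) and Cacng3 (0.81). For Per1 they were Nxf1 (r = 0.86), Tm6sf2 (0.85) and Per2 (0.82), the 1 case in which a clock gene was among the nearest 3. Per2 was nearest to Dennd6b (r = 0.88), 1700086D15Rik and Mir376b, and Per3 to Sf3a1 (r = 0.85), Ing4 and Tob2. Cry1 was nearest to Ndufaf4 (r = 0.85), Asah1 and Nol11, Cry2 to Dnaaf4 (r = 0.82), Zc3h12b and Pan3, and Clock to Fuca2 (r = 0.91), Zic5 and Ndfip2. With 19937 genes and 18 arrays, r of this size arise among many genes.

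The spread between arrays of a group differed from gene to gene. Per1 had an SD of 0.14 within groups, higher than 87.5% of all genes, and Dbp one of 0.12, higher than 77.7%. Per2, Nr1d1, Per3, Cry1 and Nr1d2 had SDs between 0.08 and 0.09, close to the median of 0.09 over all genes. Clock (0.07), Tef (0.06) and Cry2 (0.05) were steadier, Cry2 being lower than all but 7.8% of genes. The SD of a gene also depends on its brightness and probes, which was not tested here.

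Lists of genes that respond to hormones, activity and temperature were set beside the clock genes, since Per1 and Per2 are targets of the first of these. All 12 measured glucocorticoid-response genes and all 8 immediate early genes had higher values in maternal than in pups removed arrays, 6 of each with an unadjusted p under 0.05 (8.96% of all probesets) and none called by limma, and the median log2 differences were 0.13 and 0.22. Against virgin arrays, the immediate early genes were lower in 8 of 8 cases in pups removed arrays, 4 with an unadjusted p under 0.05 (8.13% of all probesets), and higher in 7 of 8 in maternal arrays, none with such a p. Of the glucocorticoid-response genes 10 of 12 were lower in pups removed and 11 of 12 higher in maternal than in virgin arrays, with 0 and 3 at such a p (8.13% and 10.4% of all probesets). Per1 deviated with the mean of the immediate early genes (r = 0.68, permutation p = 0.0117, rho = 0.56, permutation p = 0.0316), and this r was 0.38 without 2 arrays. Per2 deviated with the mean of the glucocorticoid-response genes (r = 0.65, permutation p = 0.0134, rho = 0.58, permutation p = 0.0407), and this r was 0.46 without 2 arrays. Per3 had an r of 0.61 with the same mean (permutation p = 0.0300, adjusted p = 0.310), which was 0.33 without 2 arrays. Nr1d2 deviated against the immediate early genes (r = -0.48, permutation p = 0.0177, adjusted p = 0.283), r being -0.395 without 2 arrays. None of 110 relations between a clock gene and a list passed the adjustment, and 13 had an unadjusted p under 0.05. The share of other genes with such a p was not computed. The relations of Per1 and Per2 above each had an adjusted p of 0.283. The smallest p values were those of Cry1 with the 1 blood marker measured, Alas2 (r = -0.70, permutation p = 0.00165, adjusted p = 0.179), and of Clock with the lateral septal markers (r = 0.54, permutation p = 0.00326, adjusted p = 0.179). The mean signal of Alas2 was 7.34, at the 43.7 percentile of all probesets. With the lateral septal markers Nr1d1 had r of -0.60 (permutation p = 0.0270, adjusted p = 0.310), Tef -0.53 (permutation p = 0.0310, adjusted p = 0.310) and Dbp -0.51 (permutation p = 0.0445, adjusted p = 0.377), which were -0.24, -0.38 and -0.32 without 2 arrays. Tef deviated with the mean of the striatal markers (r = 0.55, permutation p = 0.0380, adjusted p = 0.349). Clock deviated with the astrocyte markers (r = 0.71, permutation p = 0.00554, adjusted p = 0.203), r being 0.45 without 2 arrays. With the astrocyte markers Per2 had r of -0.59 (permutation p = 0.0180, adjusted p = 0.283) and Nr1d1 -0.50 (permutation p = 0.0207, adjusted p = 0.285). These were -0.63 and -0.35 without 2 arrays. Of 7 temperature-response genes, 5 were higher and 2 lower in maternal than in virgin arrays, with a median of 0.08 and 4 at an unadjusted p under 0.05 (10.4% of all probesets). The 1 of them that limma called, beside 1.65% of all probesets, was the cold-inducible Rbm3 (the brightest of 3 probesets that name it alone). It fell by 0.38 on the log2 scale (limma adjusted p = 0.209).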

How the data were processed

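Per the submitters' processing notes and the methods, the deposited log2 values are PLIER summaries that the authors computed in Affymetrix Power Tools 1.12.0 after background subtraction by GC content. The between-array method is not given in the sources used here. The log2 values were used as deposited, 1 per probeset and array. By the platform annotation, 21789 probesets name 1 gene, 1621 several and 12147 none. A model of the 3 groups was fitted to all 35557 probesets with limma 3.58.1 in R 4.3.3, with Benjamini-Hochberg adjustment over all of them. Called means an adjusted p under 0.25. Correlations were computed with numpy 2.4.6 on deviations from group means, with two-sided permutations of arrays within groups (100000), adjusted over 45, 300 or 110 relations with a threshold of 0.05. The fit and the permutation test were tested on simulated data. The clock genes and lists were chosen with earlier results of these data known. Named are the 10, their 3 nearest genes, main partners in the pathway, and up to 3 genes of highest mean in other lists. Usp2, Dyrk1a, Arntl2, Prkaa1 and Csnk1e were chosen after their values were seen. Arrays have no read depth, and their number limits the precision. The labels tie no replicate number to an RNA extraction. The p-values rest on the spread between arrays of 1 mouse each, in which mouse, punch, extraction and array cannot be told apart. Alternatives are given in the closing section.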

Additional observations from a re-analysis of the deposited data

Results flagged for a closer look

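Across the 30 sets of 6 arrays formed by the 10 clock genes and 3 groups, 2 held an array far from the others of its group by Dixon's criterion (the gap to the nearest array as a share of the range, at its 95% critical value), and chance alone flags about 1 in 20 such sets. Nr1d2 stood at 10.86 in pups removed replicate 4, above the next array at 10.65. Per3 stood at 8.99 in maternal replicate 5, below the next array at 9.08.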

How the results depend on the processing

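Between maternal and virgin arrays 2 clock genes were called. With the striatal marker mean as a covariate the count was 0, and with an array left out it ranged from 0 to 2. Between maternal and pups removed arrays the count of 0 became 2 with array weights. For the other genes of the pathway the count of 0 between maternal and virgin arrays became 1 without the lowest quartile of probesets, 2 with only the arrays of the groups compared, and ranged from 0 to 2 with an array left out (2 without virgin replicate 6 or pups removed replicate 3). For pairs of clock genes past the adjusted threshold, the count of 0 became 5 without group centring, 5 after quantile normalization and 3 by Spearman, and ranged from 0 to 5 with an array left out (5 without maternal replicate 3 or 4). The causes were not tested. The study prepared RNA in matched sets with a mouse from each group, and the labels tie no replicate number to these sets. Same-numbered arrays of different groups had correlations of their deviations between -0.25 and 0.10, and 2 of 36 correlated best with their own number. These low correlations cannot tell whether same numbers share an extraction, since a small shared effect would leave them low. With the replicate number as a block, 356 rather than 585 probesets were called between maternal and virgin arrays, the count of clock genes called was 2, and the adjusted p was 0.239 for Nr1d1 and 0.221 for Dbp. Differences that changed sign were all small and not called. With array weights Per3 was at -0.006 and Cry1 at 0.006 between maternal and virgin arrays, and Per1 at -0.009 between both postpartum groups and virgin arrays. With the striatal covariate Cry1 was at 0.032 between maternal and virgin arrays, Nr1d2 at -0.037, Cry2 at 0.018 and Clock at -0.012 between maternal and pups removed arrays, and Tef at 0.002 between pups removed and virgin arrays. After quantile normalization Cry2 was at 0.011 between maternal and pups removed arrays, and Cry1 at -0.001 between pups removed and virgin arrays and at -0.010 between both postpartum groups and virgin arrays. With an array left out, differences between maternal and virgin arrays ranged from -0.025 to 0.029 for Per3, from -0.032 to 0.026 for Cry1 and from -0.044 to 0.006 for Clock. Those between maternal and pups removed arrays ranged from -0.011 to 0.055 for Nr1d2, from -0.021 to 0.009 for Cry2 and from -0.010 to 0.020 for Clock. Those between pups removed and virgin arrays ranged from -0.031 to 0.001 for Tef, from -0.086 to 0.024 for Per1, from -0.061 to 0.012 for Per2 and from -0.048 to 0.002 for Clock. Those between both postpartum groups and virgin arrays ranged from -0.041 to 0.069 for Per1, from -0.023 to 0.045 for Per2, from -0.004 to 0.050 for Per3, from -0.014 to 0.044 for Cry1 and from -0.046 to 0.004 for Clock.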
